A study of Mus musculus with 6 samples.

Results

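The genes described here are 10 members of the machinery that carries a cell through G1: the D cyclins Ccnd1, Ccnd2 and Ccnd3, the E cyclins Ccne1 and Ccne2, the kinases Cdk2, Cdk4 and Cdk6, and the kinase inhibitors Cdkn1a and Cdkn1b. They were chosen by symbol from the 35275 gene IDs of a read count table, and each symbol matched 1 ID. RNA-seq was done on Melb-a, a mouse melanoblast cell line from C57BL/6J skin that the labels class as melanocytes. All cells were moved from growth medium to DMEM with 10% serum, 2 nM of the melanocyte-stimulating hormone analog NDP-alpha MSH and 200 nM of the phorbol ester PMA, a differentiation medium. For 48 h this medium held either the vehicle DMSO (3 samples) or 10 µM iBRD9 (3 samples), a ligand of the bromodomain of BRD9, a subunit of one of the SWI/SNF chromatin remodelers. The design text calls the samples independent but does not say how they were made separate, so p-values measure the spread between these samples. With one compound at one dose, what runs through BRD9 and what does not cannot be told apart.

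In G1, D cyclins bind CDK4 or CDK6 and start the phosphorylation of the retinoblastoma protein, which frees E2F transcription factors to switch on genes of DNA replication. Cyclin E, itself an E2F target, binds CDK2 and completes that step. The CDKN1A protein (p21) and the CDKN1B protein (p27) bind these complexes and hold CDK2 inactive, while they can also help cyclin D bind CDK4. In the melanocyte lineage MITF, the master regulator of pigment genes, is known to act on both sides of this switch: Cdk2 and Cdkn1a are each among its targets, and Cdk2 lies beside the melanosome gene Pmel.

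Promoters from RefSeq (build GRCm38.p6) were at hand for 7 of the 10 genes, as 9 windows of 300 bases that run from 250 before to 50 after the start site. The kinases Cdk2 and Cdk4 both rose with iBRD9. The 250 bases before their start sites are shown because they hold repeated E2F motifs (Cdk2) or repeated E-boxes (Cdk4). Whether these motifs bear on the rise was not tested. Capitals in Cdk2 (chr10:128705052-128705301, minus strand) mark E2F motifs, searched as TTCCCGC and its variants TTGGCGC and also TTCGCGC and also TTGCCGC on both strands. Capitals in Cdk4 (chr10:127063285-127063534, plus strand) mark the E-box CACGTG, which MYC and MITF can bind and which reads the same on both strands.
Cdk2: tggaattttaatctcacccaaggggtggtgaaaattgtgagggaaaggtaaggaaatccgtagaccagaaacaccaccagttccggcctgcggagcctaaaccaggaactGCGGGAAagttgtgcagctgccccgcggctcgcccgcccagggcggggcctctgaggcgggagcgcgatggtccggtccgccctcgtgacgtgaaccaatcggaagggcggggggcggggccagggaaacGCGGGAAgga
Cdk4: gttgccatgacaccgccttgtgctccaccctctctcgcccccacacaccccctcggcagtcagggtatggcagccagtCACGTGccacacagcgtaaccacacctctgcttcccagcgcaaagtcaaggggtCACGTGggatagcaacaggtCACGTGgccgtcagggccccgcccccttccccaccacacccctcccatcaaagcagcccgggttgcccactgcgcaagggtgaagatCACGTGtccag

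The 2 matches in the printed Cdk2 stretch begin at positions -140 and -10 from the start site, and 1 more begins at 41 after it. The start site is that of RefSeq, and a short stretch checked after it was found in none of the GENCODE M21 transcripts of Cdk2 (0), so these positions are given relative to the RefSeq start alone. An E2F motif was found in 9.57% of the 32851 promoter windows in the table, and at least 3 in 0.131%. Among the 9 windows of these genes, that of Cdk2 alone held one (1 window). In Cdk4 the E-boxes begin at -172, -118, -98 and -11. At least 1 CACGTG stood in 7.15% of all windows and at least 4 in 8 windows, or 0.0244%. The Cdk6 window held 1, at -220, and the other 7 windows held none. The GC box GGGCGG was found in 7 of the 9 windows, against 35.7% of all. The E-box CATGTG, the AP-1 motif TGANTCA and the CHR motifs TTTGAA or TTCGAA were not found in these 9 windows, and stood in 14.2%, 7.81% and 19.2% of all. The Cdk2 and Cdk4 windows were picked for their repeats, so the rarity of such repeats adds nothing further. The shares over all windows were not matched for base composition. These matches describe letters in a window, and no binding was measured.

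The libraries held 22846391 to 29680952 counts, and all 10 genes passed the filter on low counts, the lowest single count being 255 (Ccne2 in DMSO replicate 2). The melanocyte markers Tyr, Tyrp1, Dct, Pmel, Mlana, Mitf, Sox10, Kit and Slc45a2 were all detected (9 of 9) and summed to 17100 to 18700 CPM (read counts scaled to the library total) with DMSO and 16300 to 18000 with iBRD9. Of the 9, 5 were called lower with iBRD9 (Tyr, Tyrp1, Mlana, Sox10 and Slc45a2), 1 higher (Dct) and 3 did not pass, with a median log2 fold change of -0.62. Among markers of other cells, the 8 fibroblast genes, 6 of them high enough to be tested, summed to 75.4 to 95.4 CPM with DMSO and 137 to 151 CPM with iBRD9. Of those 6, Col1a1 (2.36) and Dcn (1.23) were called higher, Col1a2 (-1.95) lower, and Lum, Pdgfra and Pdgfrb did not pass (log2 fold changes). For 8 Schwann cell genes, 6 of them tested, the sums were 282 to 361 and 91.0 to 93.6 CPM. The sums were 3.32 to 4.17 and 3.77 to 4.51 CPM for 7 keratinocyte genes, 1 of them tested, with Krt5, Krt1 and Ivl at 0 in all libraries. They were 1.42 to 1.52 and 5.76 to 7.66 CPM for 7 immune and endothelial genes, 2 of them tested, with Ptprc and Cd3e at 0. The part of these markers in the results below was not tested. Brd9, given in the TMM-scaled CPM explained below, stood at 37.4 ± 4.07 with DMSO and 38.8 ± 0.0510 with iBRD9 (SD, n = 3). Its log2 difference was 0.05 with a 95% interval of -0.14 to 0.25.

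One library stood apart. DMSO replicate 1 differed from the other DMSO libraries by a chi-square per degree of freedom of 29.2 and 37.5, against 3.06 between DMSO replicates 2 and 3. Its shift was not particular to the members. On the first principal component of all tested genes, the axis of largest spread (82% of the variance), DMSO replicate 1 lay at -26.7. DMSO replicates 2 and 3 lay at -52.2 and -55.7, and the iBRD9 libraries at 43.3 to 46.5. In each of the 7 members that changed, DMSO replicate 1 likewise lay between DMSO replicates 2 and 3 and the iBRD9 mean. The share of all called genes with this order was not counted. In these members DMSO replicate 1 had covered 0.0705 (Cdk2) to 0.65 (Ccne1) of the log2 distance to the iBRD9 mean (median 0.361). Without it the 7 members kept their direction and their call, at -0.69 for Ccnd2, 0.53 for Ccnd3, 0.69 for Ccne1, 1.37 for Ccne2, 1.19 for Cdk2, 0.26 for Cdk4 and -1.48 for Cdkn1a (log2 fold change).

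Both E cyclins, Ccnd3, Cdk2 and Cdk4 rose, and Cdkn1a and Ccnd2 fell. Values are CPM with TMM scaling (trimmed mean of M values), and called genes are those under 0.05 in adjusted p by edgeR's quasi-likelihood test (Benjamini-Hochberg over 13602 genes). Of the 10 members 5 rose, 2 fell and 3 did not pass. Among all tested genes 60.7% were called, 29.8% higher and 30.9% lower, so a share of 70.0% called is near the background. The members' median log2 fold change was 0.20, against 0.01 over all tested genes. In 7 of the 10 members the groups did not overlap, as in 68.0% of all tested genes. In bulk RNA, a change in the share of cells in a cell cycle phase and a change in RNA per cell cannot be told apart.

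**Figure D1:**
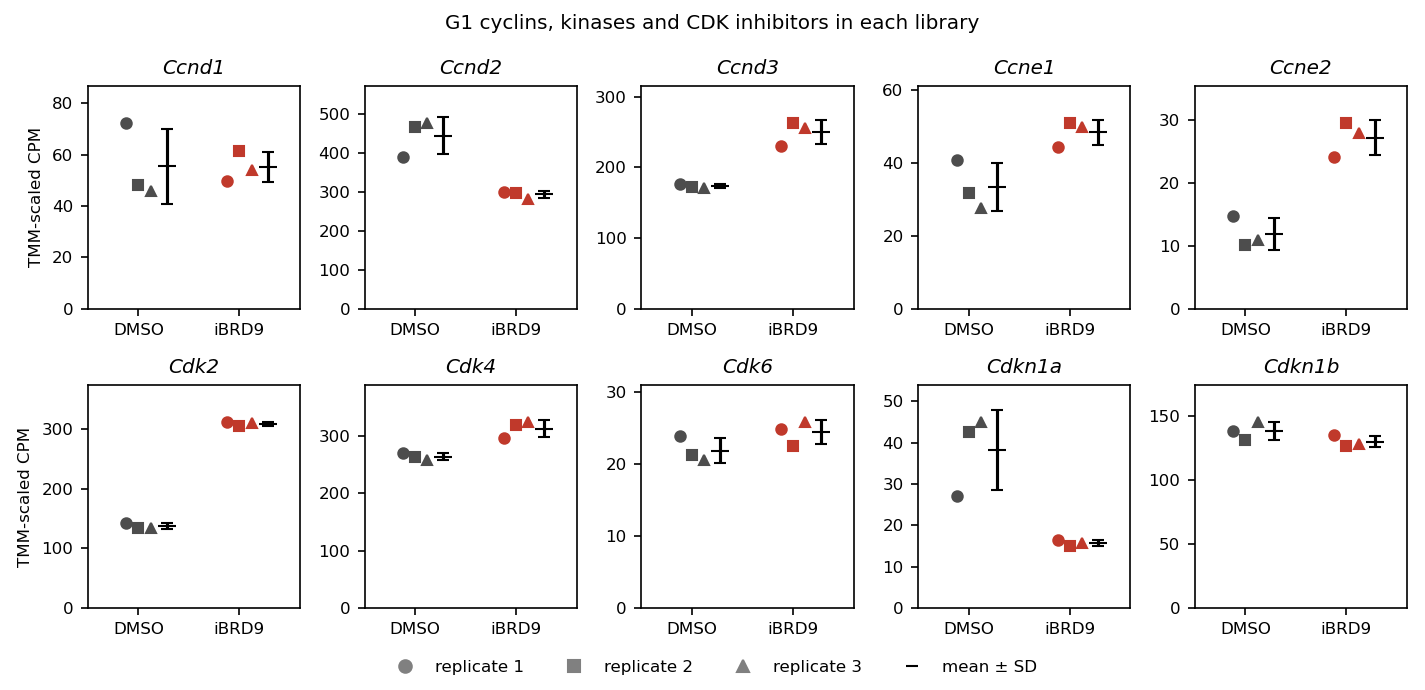
TMM-scaled CPM (y axes, each from 0) of the 10 genes in the 3 DMSO and 3 iBRD9 libraries; symbols are replicates and bars are the mean ± SD. Cdk2 moves from 134 to 142 CPM with DMSO to 304 to 311 CPM with iBRD9, while DMSO replicate 1 stands apart from its group in Ccnd1 and Cdkn1a.

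The D cyclins, which link growth signals to CDK4 and CDK6, went in different directions. Ccnd2 (ENSMUSG00000000184) read 389, 465 and 476 CPM in DMSO replicates 1 to 3, and 299.7, 297 and 283 CPM with iBRD9. Every iBRD9 library was below every DMSO library. The log2 fold change was -0.60 (SE 0.082, edgeR adjusted p = 0.000424).

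Ccnd3 (ENSMUSG00000034165) read 176, 173 and 171 CPM with DMSO, a narrow range, and 231, 263 and 256 CPM with iBRD9. It rose by 0.53 on the log2 scale (SE 0.063, edgeR adjusted p = 0.000208), and the groups did not overlap. Ccnd1 (ENSMUSG00000070348) read 72.3, 48.4 and 45.8 CPM with DMSO and 49.8, 61.5 and 54.2 CPM with iBRD9. The DMSO replicate 1 value was the highest of the 6, and the groups overlapped. Its log2 difference was -0.01 with a 95% interval of -0.39 to 0.37 (edgeR adjusted p = 0.968). Without DMSO replicate 1 it was called higher, at 0.22 (edgeR adjusted p = 0.0115), so the result for Ccnd1 rests on that library.

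Both E cyclins, the partners of CDK2, rose. Ccne2 (ENSMUSG00000028212) read 14.7, 10.1 and 10.8 CPM with DMSO and 24.1, 29.5 and 27.9 CPM with iBRD9. All iBRD9 libraries were above all DMSO libraries, and the log2 fold change was 1.19 (SE 0.15, edgeR adjusted p = 0.000252). Ccne1 (ENSMUSG00000002068) read 40.8, 31.7 and 27.7 CPM with DMSO and 44.5, 51.0 and 49.9 CPM with iBRD9. Its groups were separated by a small gap, between DMSO replicate 1 and iBRD9 replicate 1. The log2 fold change was 0.54 (SE 0.13, edgeR adjusted p = 0.00784), and 0.69 without DMSO replicate 1.

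Cdk2 (ENSMUSG00000025358), the kinase that cyclin E activates, had the smallest error of the 10 genes. It read 142, 134 and 134 CPM with DMSO and 311, 304 and 309 CPM with iBRD9. It rose by 1.17 on the log2 scale (SE 0.053, edgeR adjusted p = 2.89e-06). Its change was larger in size than that of 88.6% of tested genes, against 89% for Ccne2 and 90.3% for Cdkn1a. Pmel, the neighbour of Cdk2 on the opposite strand, read 1774.5, 2130.4 and 2197 CPM with DMSO and 2501, 2259.5 and 2249 CPM with iBRD9. The groups did not overlap, but the log2 difference of 0.20 (95% interval -0.01 to 0.41) did not pass (edgeR adjusted p = 0.0920), and it was 0.10 without DMSO replicate 1. The exons of both genes share 34 bases in the GENCODE M21 annotation, and the strand setting of the counting is not given.

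Cdk4 (ENSMUSG00000006728), a partner of the D cyclins, read 270.4, 263 and 257 CPM with DMSO and 295, 319 and 323 CPM with iBRD9. Its rise was small, 0.25 on the log2 scale (SE 0.058, edgeR adjusted p = 0.00614), with groups that did not overlap. Cdk6 (ENSMUSG00000040274), the other such partner, read 23.9, 21.3 and 20.5 CPM with DMSO and 25.0, 22.6 and 25.8 CPM with iBRD9. Its groups overlapped, and the difference of 0.16 had a 95% interval of -0.05 to 0.37 (edgeR adjusted p = 0.153). Without DMSO replicate 1 Cdk6 was called higher, at 0.22 (edgeR adjusted p = 0.0140).

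The inhibitors parted. Cdkn1a (ENSMUSG00000023067), the gene of p21, read 27.2, 42.6 and 44.9 CPM with DMSO and 16.5, 15.05 and 15.7 CPM with iBRD9. All iBRD9 libraries were lower, also than DMSO replicate 1. The log2 fold change was -1.28 (SE 0.17, edgeR adjusted p = 0.000401), and -1.48 without DMSO replicate 1. Cdkn1b (ENSMUSG00000003031), the gene of p27, read 138, 131 and 145 CPM with DMSO and 135, 127 and 128 CPM with iBRD9. The groups overlapped, and the log2 difference was -0.09 with a 95% interval of -0.22 to 0.05 (edgeR adjusted p = 0.242). The whole interval lies above that of Cdkn1a, which runs from -1.68 to -0.88.

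**Figure D2:**
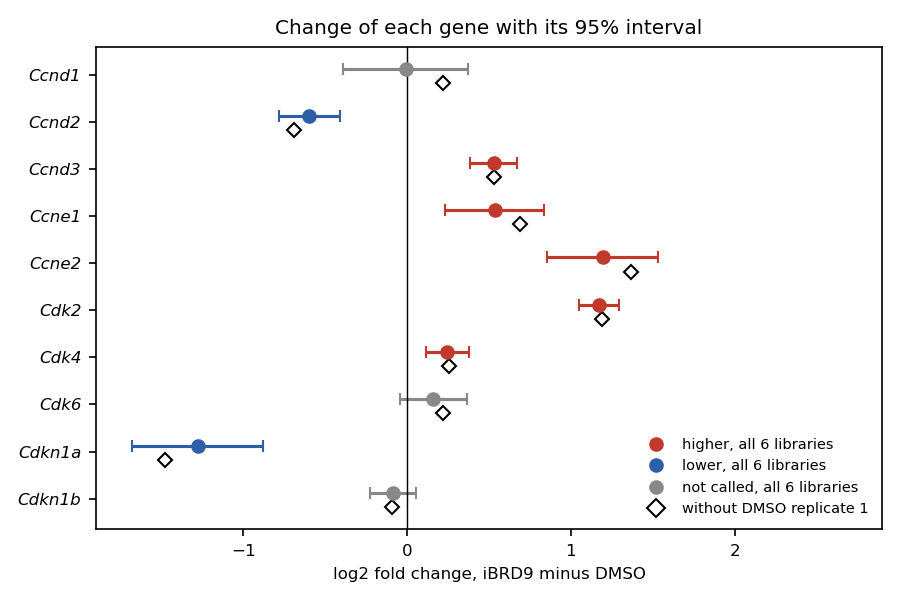
Log2 fold change (x axis, iBRD9 minus DMSO) of each gene with its 95% interval from all 6 libraries, and as open diamonds the value without DMSO replicate 1. Cdk2 has the narrowest interval, and the diamonds of Ccnd1 and Cdk6 lie at 0.22.

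Without DMSO replicate 1, 7 members were called higher and 2 lower, in a fit that called 74.0% of 13933 genes, 37.0% higher and 37.0% lower. Leaving out any 1 of the other libraries gave 5 higher and 2 lower, as with all 6.

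Several of these genes overlap a neighbour on the opposite strand, where reads cannot be told apart unless the counting used strand. By GENCODE M21, Ccnd1 shares 1100 exon bases with LTO1 (17.3 CPM with DMSO, log2 difference 0.10, not called) and Ccne2 shares 609 with Ints8 (59.6 CPM, 0.05, not called). Cdk4 shares 641 with Tspan31 (58.9 CPM, 0.07, not called). Ccnd3 shares 361 with Bysl, which fell (51.0 CPM with DMSO, -0.35), the opposite direction to Ccnd3. Ccnd2 shares 368 with the antisense gene 9330179D12Rik, which fell as well (-1.67) from a mean of 4.35 CPM with DMSO. Ccnd3 has a processed pseudogene, Ccnd3-ps, and its counts are uncertain where reads are shared.

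Levels were compared between genes as RPKM, the TMM-scaled CPM per kilobase of exons merged over all GENCODE M21 transcripts of a gene. Merged exons understate the level of a gene whose main transcript is short. With DMSO, Cdk4 was highest at 79.2 to 83.2 RPKM, followed by Ccnd2 (41.3 to 50.6), Cdkn1b (28.8 to 31.9), Cdk2 (21.6 to 22.9) and Ccnd3 (19.5 to 20.1). No 2 neighbours among these 5 overlapped. Ccne1 (10.4 to 15.3), Ccnd1 (9.73 to 15.3) and Cdkn1a (7.65 to 12.6) overlapped each other, and Ccne2 (2.88 to 4.21) and Cdk6 (1.47 to 1.71) were lowest. With iBRD9 Cdk4 was again highest (90.9 to 99.5 RPKM), and Cdk2 (48.9 to 49.99) came next, above Ccnd2 (30.0 to 31.8). Cdkn1b (27.9 to 29.8) and Ccnd3 (26.3 to 29.9) overlapped. Below them came Ccne1 (16.7 to 19.2), Ccnd1 (10.6 to 13.1), Ccne2 (6.89 to 8.43), Cdkn1a (4.24 to 4.64) and Cdk6 (1.61 to 1.85), with no overlap between neighbours. Ccne2 was thus below Cdkn1a in every DMSO library and above it in every iBRD9 library.

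**Figure D3:**
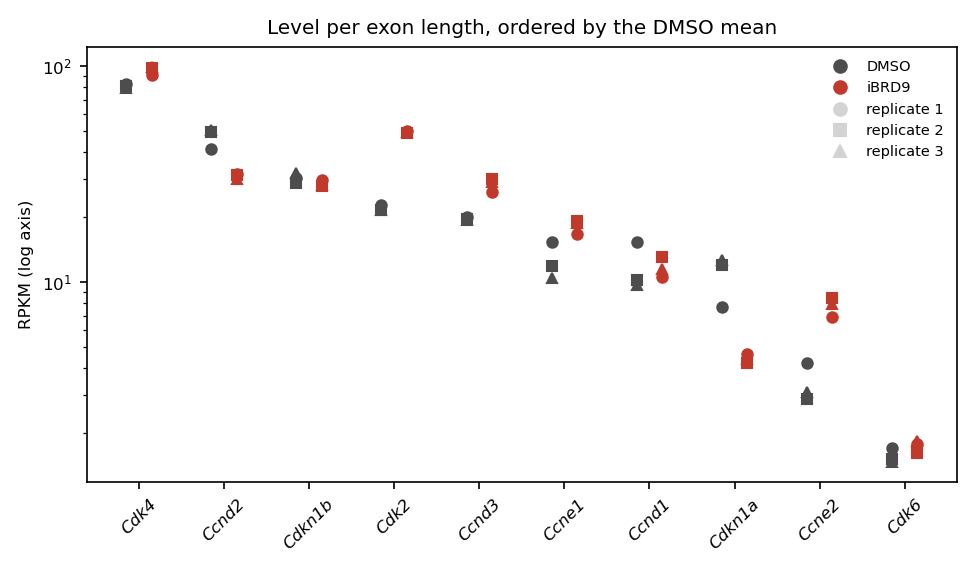
RPKM (y axis, log scale) of the 10 genes in each library, ordered by the DMSO mean; colours are treatments and symbols replicates. Cdk2 stands below Ccnd2 with DMSO and above it with iBRD9.

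Ratios of 2 genes within a library do not depend on how libraries are scaled, though their size depends on gene length. For 3 against 3 libraries the smallest possible p is 0.1, so no ratio can pass, and 7 ratios were compared. Reads of Cdkn1b per read of Cdkn1a were 5.09, 3.08 and 3.24 with DMSO and 8.21, 8.44 and 8.19 with iBRD9. The mean log2 ratio went from 1.89 ± 0.398 to 3.05 ± 0.0237 (SD, n = 3; exact two-sided permutation p = 0.1, adjusted 0.14). The balance of the inhibitors thus moved toward Cdkn1b in every iBRD9 library.

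Reads of both inhibitors per read of the 3 kinases were 0.379, 0.416 and 0.462 with DMSO and 0.241, 0.220 and 0.219 with iBRD9. All iBRD9 values were lower, by 0.88 on the log2 scale (exact permutation p = 0.1, adjusted 0.14). Reads of Ccne2 per read of Ccne1 were 0.361, 0.317 and 0.391 with DMSO and 0.542, 0.578 and 0.558 with iBRD9, higher by 0.65 on the log2 scale (same p). Reads of Cdk2 per read of Pmel were 0.0802, 0.0630 and 0.0610 with DMSO and 0.124, 0.135 and 0.137 with iBRD9, higher by 0.97 on the log2 scale (same p). The groups did not overlap in any of these 4 ratios.

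Among the D cyclins, Ccnd2 took 61.0%, 67.8% and 68.7% of their reads with DMSO and 51.6%, 47.8% and 47.7% with iBRD9. Ccnd3 took 27.7%, 25.2% and 24.6% with DMSO and 39.8%, 42.3% and 43.2% with iBRD9. Ccnd1 took 11.3%, 7.05% and 6.62% with DMSO and 8.58%, 9.91% and 9.13% with iBRD9, an overlapping range. The log2 ratio of Ccnd3 to Ccnd1 was higher with iBRD9 by 0.51 (exact permutation p = 0.1, adjusted 0.14), and by 0.32 without DMSO replicate 1. That of Ccnd2 to Ccnd1 differed by -0.61 with overlapping groups (exact permutation p = 0.2, adjusted 0.233), and by -0.91 without DMSO replicate 1. The log2 ratio of Cdk6 to Cdk4 differed by -0.08, also with overlap (exact permutation p = 0.5, adjusted 0.5).

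**Figure D4:**
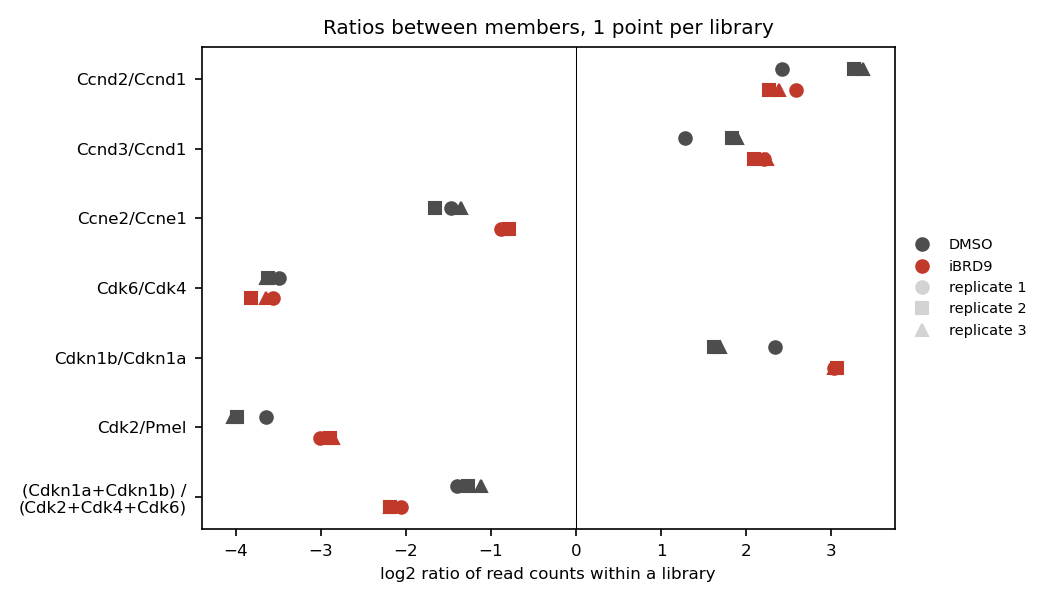
Log2 ratios of read counts within each library (x axis) for 7 pairs or sums of genes; colours are treatments and symbols replicates. The iBRD9 libraries lie apart from the DMSO libraries in 5 ratios and overlap them for Ccnd2/Ccnd1 and Cdk6/Cdk4.

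Of the 6 other CDK inhibitor genes, 3 rose, none fell (0) and 3 did not pass (median log2 fold change 0.39). This and the lists that follow stand against 60.7% of genes called and a median of 0.01 over all tested genes. Cdkn2b, the gene of the CDK4 and CDK6 inhibitor p15, rose from 2.49 ± 0.179 to 4.19 ± 0.112 CPM (SD, n = 3; log2 fold change 0.75). Cdkn1c, the gene of p57, rose by 2.66 from 0.112 ± 0.0286 CPM, near the floor, to 0.721 ± 0.116 CPM. Cdkn3, a phosphatase that acts on CDK2, rose by 0.40, and did not pass without DMSO replicate 3 or without iBRD9 replicate 2 or 3. The INK4 genes Cdkn2a (51.2 ± 3.25 and 57.7 ± 3.44 CPM, 0.17), Cdkn2c (65.0 ± 18.4 and 84.8 ± 3.75 CPM, 0.38) and Cdkn2d (53.9 ± 2.10 and 53.5 ± 3.50 CPM, -0.01) did not pass. Cdkn1a was thus the single inhibitor gene called lower among the 8 tested. With library size alone 5 of the 6 others were called higher, and without DMSO replicate 1 this was 4.

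The Rb family, E2F factors and their partners were mostly higher: 12 of 19 rose, 2 fell and 5 did not pass (median 0.27). E2f1, an activator of replication genes, rose from 44.4 ± 5.91 to 79.2 ± 3.00 CPM (0.83). E2f5 rose from 19.6 ± 1.88 to 33.1 ± 2.02 CPM (0.75) and the repressor gene E2f8 from 36.2 ± 3.13 to 56.7 ± 3.38 CPM (0.65). The pocket protein gene Rbl2 (p130), known for its part in quiescence, fell from 65.5 ± 2.26 to 55.1 ± 1.86 CPM (-0.25), and the chromatin protein gene Rbbp4 fell by 0.22 on the log2 scale with groups that overlapped. Rbbp4 was not called without any 1 of the libraries other than DMSO replicate 1, which left 1 gene lower in each case. With library size alone 13 rose and none fell (0).

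Genes that degrade or activate G1 complexes went both ways. Of 21 tested, 8 rose, 4 fell and 9 did not pass (median 0.02). Skp1 had no matching ID. Skp2, the ubiquitin ligase subunit that targets p27, rose from 22.9 ± 7.80 to 41.4 ± 1.10 CPM (0.85), and Cks2, a small CDK-binding protein gene, from 29.7 ± 4.01 to 50.1 ± 1.55 CPM (0.76). Fbxo31, whose ligase can target cyclin D1, rose from 26.4 ± 1.93 to 45.4 ± 0.576 CPM (0.78). The ligase genes Cul4b (-0.42) and Ddb1 (-0.37) and Mnat1 (-0.40), of the kinase that activates CDKs, fell. Without DMSO replicate 1, 8 fell and the median was -0.0058. Without iBRD9 replicate 2 or without iBRD9 replicate 3, 5 rose.

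Of 28 E2F targets of the G1/S transition, 13 rose, 2 fell and 13 did not pass (median 0.24). The share called, 53.6%, was below the 60.7% of all tested genes. The groups did not overlap in 46.4% of these targets, against 68.0% of all tested genes. The primase gene Prim1 rose from 34.1 ± 8.80 to 82.5 ± 1.70 CPM (1.28) and the licensing inhibitor gene Gmnn from 17.8 ± 5.52 to 34.7 ± 2.99 CPM (0.96). Slbp, the gene of a protein that binds histone mRNA, rose by 0.83 on the log2 scale. Ung (-0.56), of base excision repair, and the polymerase gene Pola1 (69.0 ± 5.42 to 52.1 ± 3.97 CPM, -0.41) fell. Without DMSO replicate 1, 20 rose and 4 fell, and with library size alone 20 rose and 2 fell. Mki67, a marker of cycling cells that is not in this list, had a log2 fold change of 1.18 and was called higher. Other genes that cycling cells express did not all follow. Ccna2 (0.24) and Cdk1 (0.51) were called higher, while Pcna (0.12), Ccnb1 (-0.04), Ccnb2 (0.14) and Foxm1 (0.06) did not pass. These 6 were named after their values were seen. The share of cycling cells was not measured.

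Cyclins and CDKs outside G1 were mixed: of 32 tested, 13 rose, 9 fell and 10 did not pass (median 0.11). The CDK5 activator gene Cdk5r1 rose from 1.18 ± 0.150 to 5.07 ± 0.343 CPM (2.10), and Ccnf, the cyclin F gene, from 46.8 ± 9.55 to 95.2 ± 7.67 CPM (1.02). Ccnl2 rose by 0.88 but did not pass with DESeq2, with no filter, or without any 1 of the libraries other than DMSO replicate 1. Cdk17 (108 ± 8.39 to 60.1 ± 2.01 CPM, -0.85), Cdk15 (-0.65) and the cyclin Y gene Ccny (-0.61) fell. With library size alone 16 rose and 6 fell.

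**Figure D5:**
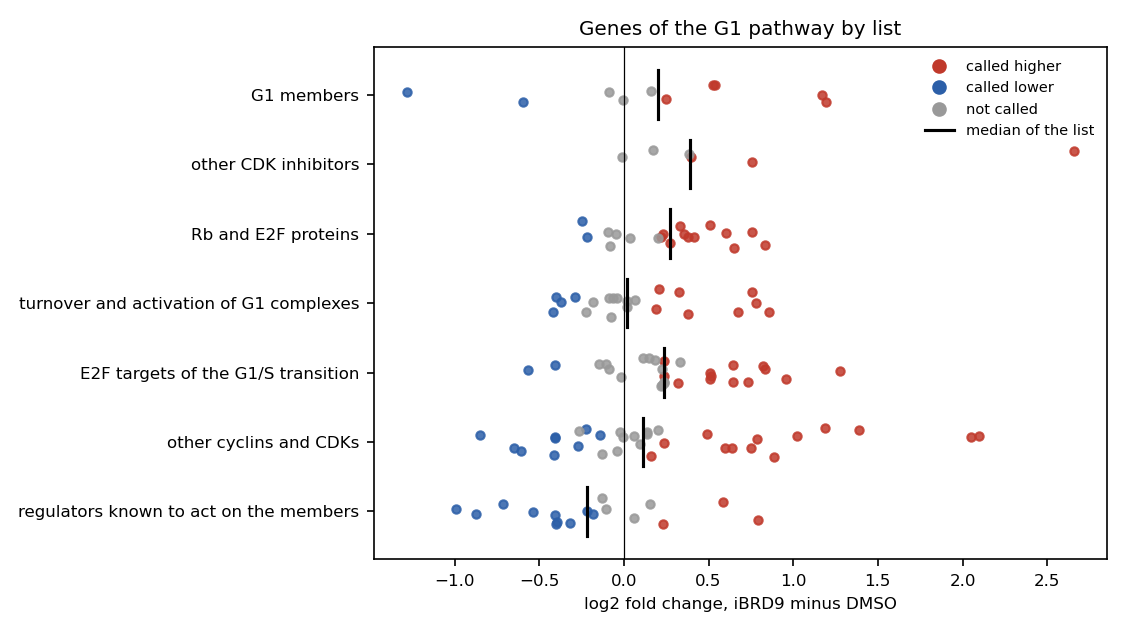
Log2 fold change (x axis, iBRD9 minus DMSO) of each tested gene of the 10 members and 6 other lists, coloured by its call; black bars are list medians, which run from -0.22 to 0.39. Points are spread vertically at random to keep them apart.

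Of 17 regulators known to act on these genes, 10 fell, 3 rose and 4 did not pass (median -0.22). Myc, which is known to repress Cdkn1a and to activate Cdk4 and Ccnd2, fell from 70.8 ± 11.1 to 35.6 ± 2.65 CPM (-0.99). Klf4, an activator of Cdkn1a, fell from 20.2 ± 1.03 to 12.3 ± 1.58 CPM (-0.72), and Fos, an AP-1 subunit gene, from 5.63 ± 1.18 to 3.09 ± 0.778 CPM (-0.88). Trp53, the p53 gene, also fell (71.0 ± 6.72 to 53.8 ± 1.48 CPM, -0.40), and was named after its values were seen. In the same list Foxo3 (-0.54) fell by more, and Zbtb17 (-0.41) and Foxo4 (-0.40) by about as much. Sp1 (-0.32), Jun (-0.22) and Mdm2 (-0.18) fell by less. The part of these regulators in the changes of the members was not tested. Tbx3 (0.79) and Tbx2 (0.23), both known repressors of CDK inhibitor genes, rose. Tbx2 did not pass without any 1 of DMSO replicates 2 and 3 or iBRD9 replicates 1 and 2, and 1 regulator was then called higher. Mitf did not pass (-0.10, 95% interval -0.25 to 0.04), but was called lower without DMSO replicate 1, at -0.16 (edgeR adjusted p = 0.00374). With library size alone 7 fell and 4 rose.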

How the data were processed

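The authors deposited raw read counts per Ensembl gene ID. The submitters' processing notes name CASAVA 1.8.2, Bowtie2 2.4.5 and GRCm39. How reads were counted, with which annotation and strand setting, is not given in the sources used here. Poly(A) RNA was selected, per the labels' protocols, with a kit that the labels do not describe as marking strand. Samples were grouped by their titles. The members and all gene lists were chosen with earlier results of these data known. Symbols were found for 34490 of 35275 IDs; annotation and promoters of GRCm38 served for names, exon lengths, overlaps and motifs, and no positions of the counted genes are given.

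Genes passing edgeR's filterByExpr (minimum count 10) numbered 13602. Libraries were TMM-scaled and treatment was tested in all 6 libraries by the robust quasi-likelihood F-test of edgeR 4.0.16 in R 4.3.3, with Benjamini-Hochberg adjustment over all tested genes and calls at an adjusted p under 0.05. The SE is the log2 fold change divided by the square root of F, and 95% intervals use the test's degrees of freedom. Library totals were 22846391 to 29680952 counts, and the biological coefficient of variation was 0.0921. Ratios were log2 of counts plus 0.5, with exact two-sided permutation tests. Named besides the members are Pmel, Mitf, Brd9, Mki67 and, per list, up to 3 called genes in each direction. These were taken by size of change among those with an average log2 CPM of 1 or more. Lists with fewer than 4 called genes are named in full. Outside this rule, the regulators Trp53, Foxo3, Foxo4, Zbtb17, Sp1, Jun, Mdm2 and Foxm1 are named. So are Ccna2, Cdk1, Pcna, Ccnb1 and Ccnb2. The fit was tested on simulated data. Alternatives used DESeq2 1.42.0, limma 3.58.1 (voom), other scalings and filters, a replicate block, a stricter threshold and the omission of each library. Figures used matplotlib 3.10.9. No column was left out (0), and no library duplicated another.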

Additional observations from a re-analysis of the deposited data

How the results depend on the processing

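All 7 calls among the 10 members kept their direction and their side of the threshold under all 14 alternatives, and the counts were 5 to 7 higher and 2 lower when 1 library was left out. Ccnd1, not called, changed sign with library size alone (0.092), limma-voom (0.017), a filter of 1 CPM in 3 libraries (0.012) and the replicate block (0.015), and ran from -0.13 to 0.22 when 1 library was left out. Library size alone moved the median of all genes by 0.106 and their calls from 4057 higher and 4205 lower to 4999 and 3385. With it Cdk6 (0.26, adjusted p = 0.0446) and Pmel (0.31) passed, Cdkn1b (0.020) and Mitf (0.0019) changed sign without passing, 5 other CDK inhibitor genes and 20 E2F targets were higher, and 0 Rb and E2F genes were lower. The filter of 1 CPM left 1 Rb and E2F gene lower. An adjusted p under 0.01 left 1 Rb and E2F gene lower, 5 turnover genes higher and 1 regulator higher.

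When 1 library was left out, Rb and E2F genes called lower ran from 1 to 3, turnover genes called higher from 5 to 8 and lower from 3 to 8, E2F targets called higher from 10 to 20 and lower from 2 to 4, and regulators called higher from 1 to 3. Brd9 ran from -0.036 without DMSO replicate 3 to 0.12 without DMSO replicate 1, and passed in neither. The 7 log2 ratios kept their direction with 5 counts added and when 1 library was left out, and the difference for Cdk6 to Cdk4 then ran from -0.14 to -0.01. Whether libraries with the same replicate number were made together is not stated in the labels. Deviations of same-numbered libraries correlated by 0.118, 0.0599 and 0.0248, and 4 of 6 libraries correlated best with their own number. With the replicate block 3920 genes were called higher and 4017 lower, the members' counts were 5 and 2, and 1 regulator was called higher. The causes of these differences were not tested. With 3 libraries a group, an interval as wide as that of Ccnd1 cannot show a small change.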
